A study of Homo sapiens with 12 samples.

Results

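The genes of fatty acid oxidation and of the peroxisome were followed by RNA-seq in HepG2 and Huh7 cells, both human lines that the labels describe as hepatocellular carcinoma, after siRNA against UBL5, a small ubiquitin-like protein that binds spliceosome components. The 43 genes were a list of symbols chosen with earlier results of these data known. They were looked up in the gene count tables, with no threshold on their counts. They comprised 16 genes of mitochondrial beta-oxidation, 4 long-chain acyl-CoA synthetases and 23 peroxisomal genes. Of the 20293 genes counted in either line, 42 were members. HAO1 was not analysed here, and ACADL and PEX7 were analysed in Huh7 alone, so that 40 members were measured in HepG2, 42 in Huh7 and 40 in both. Cells of each line had received Ctrl-siRNA, a non-targeting control, or UBL5 siRNA by lipid transfection, with no other allele or agent, and RNA was labelled as taken at 52 h. The study's own text states a shorter time for the RNA-seq, and which is right was not settled here. Each of the 4 groups held 3 libraries. The labels did not say whether the 3 libraries came from separate transfections, so the p-values reflect only how far these libraries spread, which may be technical, and each line is 1 established line.

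Fatty acids are burned in liver cells in a pair of organelles. Acyl-CoA synthetases first join the fatty acid to coenzyme A. Long-chain acyl-CoAs then cross the mitochondrial membranes on carnitine and are shortened by repeated dehydrogenation, hydration, dehydrogenation and thiolysis, with electrons leaving through the electron transfer flavoprotein to ubiquinone. Peroxisomes shorten very-long-chain and branched chains with oxidases that make hydrogen peroxide, which catalase removes. Their membrane and matrix proteins are put in place by peroxins, the products of the PEX genes, and PPARA is the nuclear receptor best known for driving both pathways in liver.

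UBL5 itself, at 60.4, 55.5 and 58.7 CPM (counts scaled by the normalised library size to a common total) in the HepG2 Ctrl-siRNA libraries, was at 6.88, 4.31 and 2.80 CPM with UBL5 siRNA, and in Huh7 it was at 68.1, 70.8 and 67.1 against 6.45, 6.67 and 5.80 CPM. The UBL5 mRNA was thus 91.9% lower in HepG2 and 90.8% lower in Huh7. Libraries held 19469574 to 29744471 counted reads. HepG2 Ctrl-siRNA replicate 3 stood apart, with 1773 listed genes at 0 against 159 to 233 in the other HepG2 libraries, although it held the most counts, 29744471. Pairs with replicate 3 differed most in both HepG2 groups. Their chi-square per degree of freedom was 33.9 and 24.5 against 9.7 with Ctrl-siRNA, and 26.7 and 16.7 against 14.3 with UBL5 siRNA. The count columns of both HepG2 replicates 3 also lacked a sample number that all others carried, and no reason was given. All 10 hepatocyte markers were listed in both lines, at a summed 49861 to 57749 CPM in HepG2 and 29107 to 30412 CPM in Huh7. Of the 7 leukocyte markers, 3 were listed in HepG2, at a summed 1686 to 2217 CPM with Ctrl-siRNA and 973 to 1218 CPM with UBL5 siRNA, and 2 in Huh7, at 578 to 593 against 328 to 345 CPM. LYZ, lysozyme, made up 98.6 to 99.9% of these sums, and the pan-leukocyte marker PTPRC and the T cell marker CD3E were not listed in either line. Of the 6 endothelial markers, 3 were listed in HepG2 and 1 in Huh7, at a summed 6.84 CPM or less, without KDR and VWF in either line. Of the 7 fibroblast and stellate markers, 7 and 6 were listed, at a summed 38.7 to 62.0 CPM in HepG2 and 17.5 to 36.6 CPM in Huh7. The part of these markers in the results below was not tested. The 15 mitochondrially encoded genes took 1.9 to 2.35% of counts in HepG2 Ctrl-siRNA and 2.75 to 3.60% in HepG2 UBL5 siRNA libraries, and 2.46 to 3.30% against 2.66 to 3.72% in Huh7; the part of this shift in the results below was not tested. In bulk RNA, fewer cells that express a gene and less RNA per cell cannot be told apart.

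Most members that changed with UBL5 siRNA fell, and a smaller group, which included acyl-CoA synthetases, ETFB and the peroxisomal import receptor PEX5, rose. In HepG2, 16 of 40 members were lower and 5 were higher at an adjusted p under 0.05 (edgeR quasi-likelihood test, Benjamini-Hochberg adjustment over all genes). Over all 15755 genes tested, 20.1% were lower and 16.5% higher, and over protein-coding genes alone 23.8% and 19.3%. In Huh7, 28 of 42 members were lower and 9 higher, against a background of 36.4% lower and 34.9% higher over all 16965 genes tested, and of 37.9% and 38.2% over protein-coding genes. The median log2 difference of the members was −0.26 in HepG2 and −0.50 in Huh7, against 0.01 and −0.01 over all genes tested. Of the 40 members tested in both lines, 14 were lower in both, 4 were higher in both and 0 were called in opposite directions in these fits. Of all 14518 genes tested in both lines, 16.4% were lower in both, 14.5% were higher in both and 330 were called in opposite directions. Across the 40 members the log2 differences of the lines had a Pearson r of 0.85, and across all genes 0.67, a description over genes that are not independent replicates. All 40 and all 42 members passed the low-count filter.

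**Figure D1:**
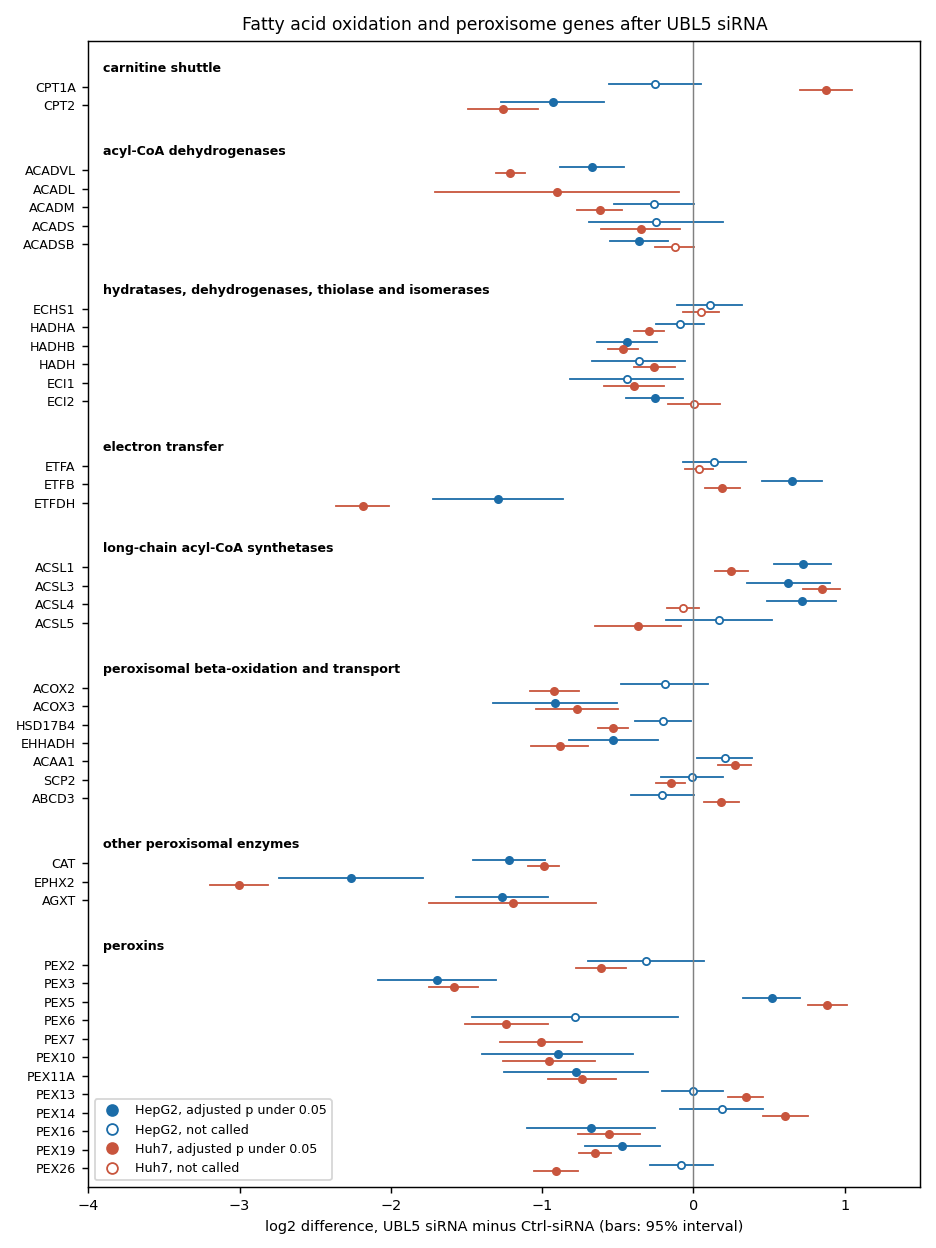
The log2 difference between UBL5 siRNA and Ctrl-siRNA (x axis) is drawn for each member by role, with its 95% interval, for HepG2 (blue) and Huh7 (red), filled where the adjusted p was under 0.05. Points lie mostly left of 0, from EPHX2 at −3.01 in Huh7, with ACSL3, ETFB and PEX5 to the right of 0 in both lines.

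The HepG2 counts depended on single libraries more than those of Huh7. Without HepG2 UBL5 siRNA replicate 2, 10 members were lower in place of 16, and without HepG2 Ctrl-siRNA replicate 3, the library with many genes at 0, 19 were lower and 5 higher. With the replicate number as a block, a pairing that rested on the deviations of well-expressed genes, 22 members were lower and 6 higher in HepG2. The members added by the block are named below with their p-values. Among them, ABCD3 was called lower in HepG2 with the block (log2 difference −0.20, adjusted p = 0.0496) and higher in Huh7, so its calls were then opposite.

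With Ctrl-siRNA, the levels of the members per length, in CPM per kilobase of merged exon, spanned about 2 orders of magnitude. By this length ECHS1, the short-chain enoyl-CoA hydratase, was the highest in both lines, at 111 ± 7.19 (SD, n = 3) in HepG2 and 111 ± 4.39 in Huh7 CPM per kilobase. In HepG2 it was followed by HADHA at 89.6 ± 1.16, ACSL4 at 72.6 ± 5.58, HADHB at 69.5 ± 6.31 and ACSL5 at 59.8 ± 4.25 CPM per kilobase. The neighbours ACSL4 and HADHB differed by less than their spread. In Huh7 the next were ACADVL at 95.5 ± 2.39, ACSL4 at 85.4 ± 4.35 and CAT at 54.8 ± 2.11 CPM per kilobase. ETFDH, whose product passes electrons from the flavoprotein to ubiquinone, was the lowest in HepG2, at 0.754 ± 0.143 CPM per kilobase, and CPT2 the next, at 2.04 ± 0.116. In Huh7 the lowest were AGXT at 1.18 ± 0.357, ACSL5 at 1.32 ± 0.142 and ETFDH at 1.42 ± 0.0142 CPM per kilobase, of which the first and second differed by less than their spread. The ranks of the 40 members had a Spearman rho of 0.73 between the lines, and of 0.97 in either line between merged exons and the longest transcript as the length. Some of the places named above still moved. Per kilobase of the longest transcript, HADHA was first in HepG2, at 126 ± 1.62 CPM, above ECHS1 at 111 ± 7.19. In Huh7 ACADVL was then first, at 196 ± 4.90 CPM per kilobase, with ECHS1 at rank 4 and ETFDH at rank 34 of 40.

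**Figure D2:**
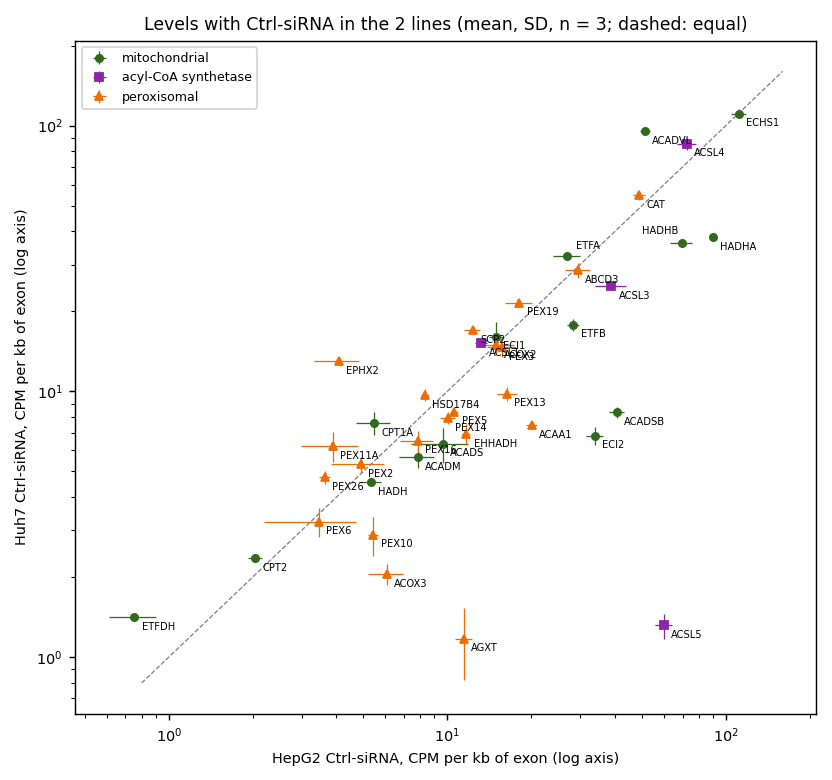
Mean level with Ctrl-siRNA in CPM per kilobase of exon, HepG2 on the x axis and Huh7 on the y axis (both log axes), with the SD of 3 libraries as bars and the line of equal levels dashed. ACSL5 and AGXT lie far below the line and EPHX2 above it, whereas ECHS1 lies on it at 111 in both.

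The 2 lines differed at baseline in 29 of the 40 members, 12 higher in Huh7 and 17 lower, against 32.0% and 31.7% of the 15668 genes tested. The widest gap was ACSL5, a long-chain acyl-CoA synthetase, 45.2-fold lower in Huh7 (log2 difference −5.50 ± 0.17 SE, adjusted p = 7.22e-12). AGXT, the peroxisomal enzyme that turns glyoxylate to glycine, was 9.85-fold lower in Huh7, and ECI2 and ACADSB were 4.97- and 4.86-fold lower. EPHX2, soluble epoxide hydrolase, went the other way, 3.20-fold higher in Huh7 (adjusted p = 1.52e-07), as did ACADVL and ETFDH, 1.86- and 1.88-fold higher. Peroxin levels lay closer together between the lines: of 11, 3 were higher and 4 lower in Huh7, with PEX10 the widest at a log2 difference of −0.91. The smallest of these calls rested on single libraries. That of ACSL4 (log2 difference 0.23) was lost without any 1 of 7 libraries (adjusted p = 0.055 to 0.143) and that of ACSL1 (0.20) without any 1 of HepG2 Ctrl-siRNA replicate 2 and Huh7 Ctrl-siRNA replicates 1 and 2 (adjusted p = 0.0611 to 0.0952). That of HSD17B4 was lost without Huh7 Ctrl-siRNA replicate 1 (adjusted p = 0.0543), and that of PEX19 without HepG2 Ctrl-siRNA replicate 3 or Huh7 Ctrl-siRNA replicate 2 (adjusted p = 0.0507 and 0.0522).

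The mitochondrial members are given in the order of the pathway. In HepG2, 6 of 15 were lower and 1 higher, against 20.1% and 16.5% of all genes, and in Huh7, 10 of 16 were lower and 2 higher, against 36.4% and 34.9%. Their median log2 difference was −0.26 in HepG2 and −0.32 in Huh7.

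The long-chain acyl-CoA synthetases activate the fatty acid. In HepG2 3 of 4 were higher and in Huh7 2 were higher and 1 lower, where 16.5% of all genes were higher in HepG2 and 34.9% in Huh7. ACSL3, which is known from lipid droplets and the endoplasmic reticulum, went from 476, 532 and 601 to 705, 846 and 935 CPM in HepG2 and from 361, 360.3 and 378 to 617, 651 and 712 CPM in Huh7. The groups did not overlap in either line, and the level was 1.54-fold higher in HepG2 (adjusted p = 0.00420) and 1.80-fold higher in Huh7 (adjusted p = 9.71e-08). ACSL1, the main liver synthetase, was 1.65-fold higher in HepG2 (log2 difference 0.72 ± 0.08 SE) and 1.19-fold higher in Huh7 (0.25 ± 0.05). ACSL4, which favours arachidonic acid, went from 699, 641 and 739 to 1053, 1061 and 1299 CPM in HepG2 (adjusted p = 0.00092), with no overlap. In Huh7 ACSL4 was at 906, 872 and 831 CPM with Ctrl-siRNA and at 798, 842 and 851 CPM with UBL5 siRNA, ranges that overlap. ACSL5 was called lower in Huh7 (log2 difference −0.36), where it stood at only 5.57 ± 0.569 CPM with Ctrl-siRNA. That call was lost with DESeq2 (adjusted p = 0.0985) and without any 1 of Huh7 Ctrl-siRNA replicates 1 and 2 and UBL5 siRNA replicates 1 and 3 (adjusted p = 0.0509 to 0.0959). In HepG2 the log2 difference of ACSL5 was 0.17 (adjusted p = 0.439), and without UBL5 siRNA replicate 1 it was 0.34 (adjusted p = 0.0489).

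The carnitine shuttle split. CPT1A, the rate-limiting carnitine acyltransferase of the outer mitochondrial membrane, stood at 49.8, 56.3 and 47.0 CPM in Huh7 with Ctrl-siRNA and at 88.7, 89.2 and 102.8 CPM with UBL5 siRNA. Every Huh7 UBL5 siRNA library lay above every Huh7 Ctrl-siRNA library, and the level was 1.83-fold higher (log2 difference 0.87 ± 0.08 SE, adjusted p = 1.21e-06). In HepG2 CPT1A was at 34.2, 29.97 and 38.9 CPM against 31.7, 25.7 and 29.1 CPM, which overlap (log2 difference −0.25 ± 0.13 SE, adjusted p = 0.175). The response of CPT1A differed between the lines by 1.10 ± 0.16 SE on the log2 scale (adjusted p = 0.000532), the only member for which that difference reached 1. CPT2, the inner membrane transferase that hands the chain back to coenzyme A, fell in both lines. It went from 19.3, 19.1 and 20.8 to 12.1, 9.94 and 8.92 CPM in HepG2 (1.91-fold lower, adjusted p = 0.00171) and from 24.8, 23.3 and 25.1 to 11.4, 10.8 and 8.40 CPM in Huh7 (2.40-fold lower, adjusted p = 7.82e-07).

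The acyl-CoA dehydrogenases catalyse the first oxidation, each for its own chain length. ACADVL, the very-long-chain enzyme, was at 248, 237 and 224 CPM in HepG2 with Ctrl-siRNA and at 164, 145 and 136 CPM with UBL5 siRNA. In Huh7 it went from 456, 469 and 486 to 202.2, 206 and 202.1 CPM. It fell by 0.67 on the log2 scale in HepG2 (adjusted p = 0.000893) and by 1.21 in Huh7 (adjusted p = 1.53e-09), with no overlap in either line. ACADM, the medium-chain enzyme, was 1.54-fold lower in Huh7, and in HepG2 its log2 difference was −0.26 (adjusted p = 0.109, and 0.0392 with the replicate block). ACADS, for short chains, was called lower in Huh7 (log2 difference −0.35), a call lost without any 1 of Ctrl-siRNA replicate 2 and UBL5 siRNA replicates 1 and 2 (adjusted p = 0.0701 to 0.097). In HepG2 ACADS was called, at a log2 difference of −0.42, only without Ctrl-siRNA replicate 3 (adjusted p = 0.0414). ACADSB, for short branched chains, was called lower in HepG2 (log2 difference −0.36), but not without UBL5 siRNA replicate 2 (adjusted p = 0.0783). ACADL, at 1.24 ± 0.482 CPM in Huh7, had a log2 difference of −0.90 (adjusted p = 0.0449), and this call was lost with DESeq2 (adjusted p = 0.0925) and without any 1 of Ctrl-siRNA replicates 1 and 2 and UBL5 siRNA replicates 1 and 3 (adjusted p = 0.112 to 0.190).

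Of the 6 hydratase, dehydrogenase, thiolase and isomerase genes of the later steps, 2 were lower in HepG2 and 4 in Huh7. Over all genes, 20.1% were lower in HepG2 and 36.4% in Huh7. The median log2 differences of the 6 were −0.31 and −0.28. HADHA and HADHB are the subunits of the mitochondrial trifunctional protein, which carries the hydratase, dehydrogenase and thiolase activities for long chains. Their genes lie head to head on chromosome 2, with 306 bases between the RefSeq starts at positions 26244632 and 26244939. HADHB went from 273, 269.5 and 312 to 219, 199 and 212 CPM in HepG2 and from 160, 159 and 156 to 119, 112 and 113 CPM in Huh7, 1.36- and 1.38-fold lower with no overlap. HADHA was at 372, 378 and 365 against 358, 335 and 354 CPM in HepG2 (log2 difference −0.09, adjusted p = 0.349) and was 1.23-fold lower in Huh7 (adjusted p = 0.000103). The HADHB to HADHA ratio, a comparison chosen after the values were seen, was 0.767 ± 0.076 with Ctrl-siRNA in HepG2 and 0.602 ± 0.00951 after UBL5 siRNA, and 0.942 ± 0.0127 against 0.838 ± 0.019 in Huh7 (SD, n = 3). Neither pair of groups overlapped, and each two-sided exact permutation p was 0.1, the smallest that 3 against 3 libraries allow. HADH and ECI1, a short-chain dehydrogenase and an isomerase, were lower in Huh7 by 0.26 and 0.39 on the log2 scale. In HepG2 their log2 differences of −0.36 and −0.44 had adjusted p = 0.0639 and 0.0628, and 0.0115 and 0.0165 with the replicate block. ECI2, a further isomerase, was called lower in HepG2 (log2 difference −0.26), but not with RLE or upper-quartile factors (adjusted p = 0.0649 and 0.0676) or without any 1 of 5 libraries (adjusted p = 0.0762 to 0.209), all but Ctrl-siRNA replicate 1. ECHS1 had log2 differences of 0.11 in HepG2 and 0.05 in Huh7 (adjusted p = 0.409 and 0.411), with 95% intervals of −0.11 to 0.32 and −0.07 to 0.17.

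Electrons from all acyl-CoA dehydrogenases pass to the flavoprotein made of ETFA and ETFB, and from there to ETFDH, the ubiquinone oxidoreductase. The 3 genes parted. ETFDH went from 15.01, 15.9 and 20.8 to 8.29, 6.83 and 5.91 CPM in HepG2, 2.45-fold lower (adjusted p = 0.00112). In Huh7 it went from 34.5, 34.05 and 35.1 to 7.78, 8.07 and 6.92 CPM, 4.56-fold lower (adjusted p = 1.77e-09), the largest fall of a mitochondrial member. ETFB rose from 176, 169 and 184 to 294, 285 and 252 CPM in HepG2 (adjusted p = 0.000746) and from 112, 125 and 119 to 131, 136 and 139 CPM in Huh7 (adjusted p = 0.00619). ETFA had log2 differences of 0.14 and 0.04 (adjusted p = 0.281 and 0.446). The ETFB to ETFA ratio was 0.717 ± 0.0438 against 1.02 ± 0.116 in HepG2, and 0.373 ± 0.0232 against 0.415 ± 0.0113 in Huh7. The ETFDH to ETFA ratio was 0.0693 ± 0.00594 against 0.0258 ± 0.00472 in HepG2 and 0.109 ± 0.00422 against 0.0233 ± 0.00214 in Huh7. These ratios were also chosen after the values were seen, their groups did not overlap, and each exact permutation p was 0.1.

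**Figure D3:**
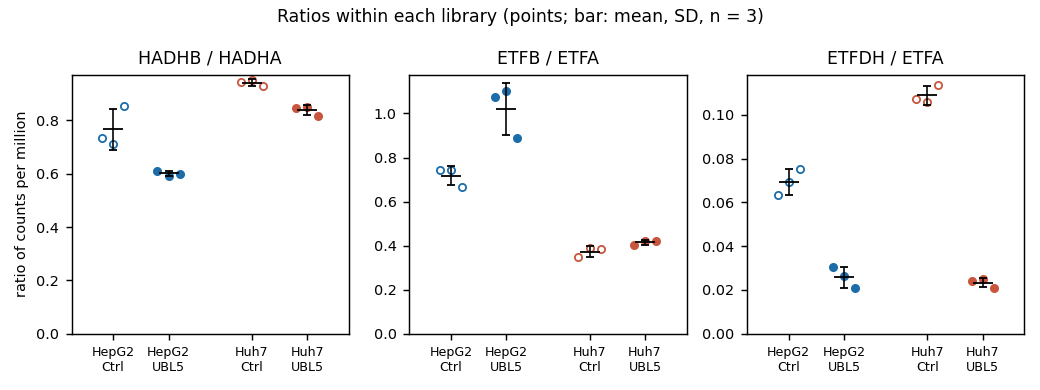
Ratio of the CPM of 2 genes within each library (y axis, from 0) for the trifunctional protein (left), the flavoprotein (middle) and ETFDH to ETFA (right); points are libraries, open for Ctrl-siRNA and filled for UBL5 siRNA, and bars are the mean and SD of 3. The groups are apart in every panel, and the ETFDH to ETFA ratio goes from a mean of 0.0693 to 0.0258 in HepG2 and from 0.109 to 0.0233 in Huh7.

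The peroxisomal members are given by enzymes and then peroxins. In HepG2, 10 of 21 were lower and 1 higher, and in Huh7, 17 of 22 were lower and 5 higher, so that every peroxisomal member measured passed the test in Huh7, where 36.4% of all genes were lower and 34.9% higher. In HepG2 these shares of all genes were 20.1% and 16.5%. Their median log2 difference was −0.47 in HepG2 and −0.75 in Huh7.

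Among the enzymes and carriers of peroxisomal beta-oxidation, ACOX3, an oxidase of branched chains, and EHHADH, the bifunctional enzyme, fell in both lines. ACOX3 went from 20.7, 20.4 and 25.9 to 14.8, 10.7 and 10.1 CPM in HepG2 and from 7.32, 8.07 and 8.87 to 5.12, 4.63 and 4.41 CPM in Huh7, 1.88- and 1.71-fold lower with no overlap. EHHADH was 1.44-fold lower in HepG2 and 1.85-fold lower in Huh7, where it went from 35.9, 32.2 and 30.6 to 19.1, 18.1 and 16.3 CPM. The HepG2 call of EHHADH was lost without UBL5 siRNA replicate 2 (adjusted p = 0.0619). ACOX2, the oxidase of bile acid intermediates, went from 58.2, 61.5 and 55.0 to 33.9, 29.8 and 28.7 CPM in Huh7, and its 50.4, 65.1 and 49.4 CPM in HepG2 overlapped with the 45.9, 47.4 and 51.3 CPM after UBL5 siRNA. HSD17B4, the second bifunctional enzyme, was 1.44-fold lower in Huh7, and in HepG2 its log2 difference was −0.20 (adjusted p = 0.0812, and 0.0365 with the replicate block). ACAA1, the thiolase, was 1.21-fold higher in Huh7, and its log2 difference of 0.21 in HepG2 had an adjusted p = 0.074, or 0.018 to 0.0494 with DESeq2, other scaling factors or the block. ABCD3, a transporter of the peroxisomal membrane, was called higher in Huh7 (log2 difference 0.18), but not without Ctrl-siRNA replicate 2 (adjusted p = 0.0537), and had a log2 difference of −0.21 in HepG2 (adjusted p = 0.115, and 0.0496 with the block). SCP2, the sterol carrier thiolase, was called lower in Huh7 (log2 difference −0.15), but not without UBL5 siRNA replicate 2 (adjusted p = 0.0565), and was not called in HepG2 (log2 difference −0.01).

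The peroxisomal enzymes outside beta-oxidation included EPHX2, which fell the furthest of all members in both lines. EPHX2, which opens epoxides of fatty acids, went from 19.5, 16.2 and 13.3 to 3.97, 3.44 and 2.75 CPM in HepG2 and from 55.8, 54.5 and 56.6 to 5.96, 6.97 and 7.80 CPM in Huh7. That was 4.81-fold lower in HepG2 (log2 difference −2.26 ± 0.21 SE, adjusted p = 0.000179) and 8.03-fold lower in Huh7 (−3.01 ± 0.09 SE, adjusted p = 5.29e-10). CAT, catalase, went from 162, 165 and 175 to 81.7, 64.7 and 68.8 CPM in HepG2 and from 205, 204 and 193 to 104.6, 100.7 and 97.6 CPM in Huh7, 2.33- and 1.99-fold lower (adjusted p = 0.000138 and 9.83e-09). AGXT went from 45.0, 48.7 and 41.96 to 21.8, 18.2 and 16.3 CPM in HepG2 and from 3.20, 5.84 and 5.82 to 1.87, 1.84 and 2.65 CPM in Huh7, 2.41- and 2.29-fold lower (adjusted p = 0.00028 and 0.00115). In all 3 genes the groups did not overlap in either line.

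**Figure D4:**
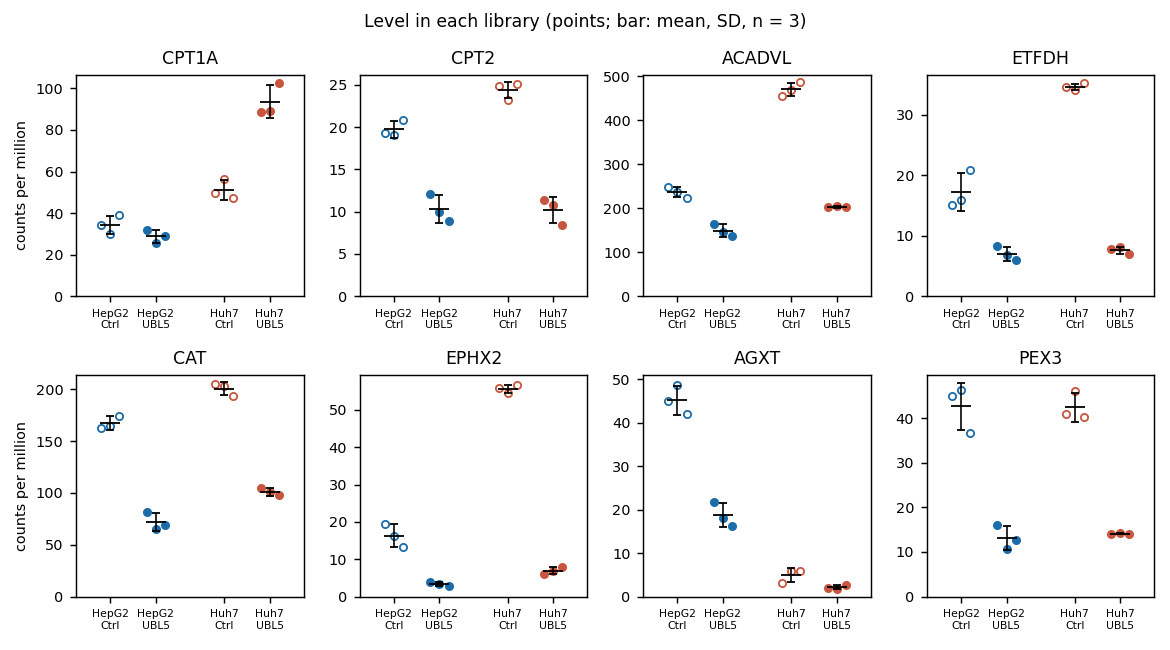
CPM (y axis, from 0) in each library for 8 members, open points for Ctrl-siRNA and filled points for UBL5 siRNA, with the mean and SD of 3 libraries, HepG2 in blue and Huh7 in red. The groups are apart in every panel and line except CPT1A in HepG2, and CPT1A in Huh7 is the one rise, from a mean of 51.0 to 93.6.

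The peroxins are given by their roles in the import cycle. Those that build the membrane fell in both lines. PEX3, the membrane anchor for new peroxisomal membrane proteins, went from 45.0, 46.3 and 36.7 to 16.1, 10.7 and 12.6 CPM in HepG2 and from 40.9, 46.1 and 40.3 to 13.99, 14.3 and 14.1 CPM in Huh7. PEX3 was 3.24-fold lower in HepG2 (adjusted p = 0.000243) and 3.002-fold lower in Huh7 (adjusted p = 8.61e-09), the largest fall of a peroxin in either line. PEX19, the chaperone that PEX3 receives, was 1.39- and 1.57-fold lower, and PEX16, the third of this group, 1.60- and 1.47-fold lower. The HepG2 call of PEX19 was lost without UBL5 siRNA replicate 2 (adjusted p = 0.0575), and that of PEX16 without Ctrl-siRNA replicate 2 or UBL5 siRNA replicate 3 (adjusted p = 0.0544 and 0.0567).

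The matrix import receptor and its dock went the other way in Huh7. PEX5, the receptor for proteins with a carboxy-terminal signal, went from 54.9, 55.2 and 57.2 to 79.1, 81.4 and 78.7 CPM in HepG2 and from 47.4, 47.8 and 46.1 to 90.8, 89.6 and 80.7 CPM in Huh7. It was 1.43-fold higher in HepG2 (adjusted p = 0.00167) and 1.85-fold higher in Huh7 (adjusted p = 1.07e-07), with no overlap. PEX14 and PEX13, the docking proteins of the membrane, were 1.52- and 1.27-fold higher in Huh7, with PEX14 going from 22.2, 24.3 and 24.8 to 37.7, 35.9 and 34.8 CPM. In HepG2 their log2 differences were 0.19 and −0.01 (adjusted p = 0.264 and 0.967), the sign of the latter turning with the scaling factors. PEX7, the receptor for the amino-terminal signal, was measured in Huh7, where it fell from 6.82, 7.17 and 7.32 to 3.89, 3.44 and 3.25 CPM (2.01-fold, adjusted p = 1.78e-05).

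The peroxins that ubiquitinate and recycle the receptor fell in Huh7. PEX10 and PEX2, ring-finger ligases, were 1.94- and 1.52-fold lower there. PEX6, the ATPase that pulls PEX5 back out, was 2.36-fold lower, and PEX26, its membrane anchor, 1.88-fold lower, from 95.9, 88.6 and 87.7 to 51.6, 49.3 and 44.4 CPM. In HepG2 PEX26 was at 66.8, 67.6 and 60.8 CPM against 64.1, 62.5 and 58.1 CPM, which overlap. PEX6 was at 13.2, 14.6 and 6.68 CPM with Ctrl-siRNA in HepG2, replicate 3 being low, and at 8.20, 6.50 and 5.24 CPM with UBL5 siRNA. Its log2 difference of −0.78 had an adjusted p = 0.0700, which was 0.0199 with the block, and without Ctrl-siRNA replicate 3 it was −1.06 (adjusted p = 0.0018). PEX10 was 1.86-fold lower in HepG2, a call lost without UBL5 siRNA replicate 2 (adjusted p = 0.0509). PEX2 had a log2 difference of −0.31 in HepG2 (adjusted p = 0.183). PEX11A, which promotes division, was 1.71-fold lower in HepG2 and 1.67-fold lower in Huh7, and the HepG2 call was lost without UBL5 siRNA replicate 2 or 3 (adjusted p = 0.0942 and 0.0741).

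**Figure D5:**
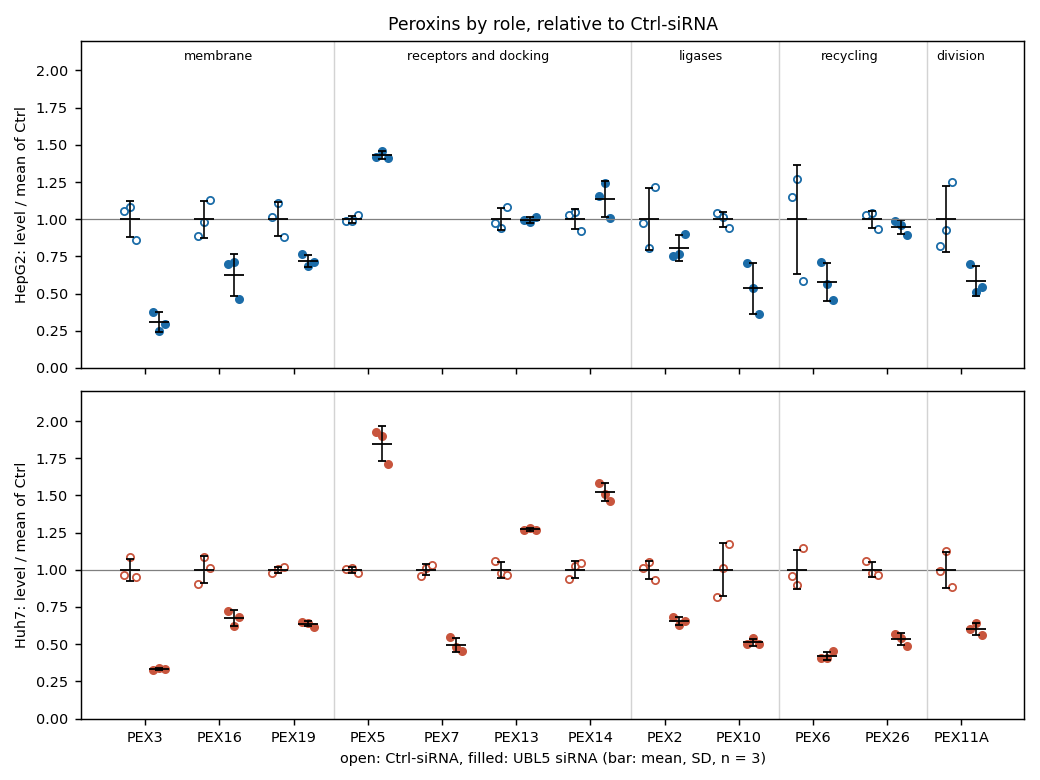
Level of each peroxin relative to the mean of the Ctrl-siRNA libraries of its line (y axis, from 0), HepG2 above and Huh7 below, open points for Ctrl-siRNA and filled for UBL5 siRNA, with the mean and SD of 3. PEX5 lies above 1 in both lines and PEX3 near a level of 0.3, and PEX13 and PEX14 lie above 1 in Huh7 while PEX26 falls there and overlaps in HepG2.

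Promoter sequences were read for members that moved together or share a promoter, from the RefSeq table (GRCh38.p14), in which windows were read for 36 of the 43 members. The 250 bases before the start are shown for the falling CAT, AGXT and PEX3, for the rising ACSL3, and for HADHB, whose window shares 194 bases with that of HADHA. Capitals mark 3 motifs on either strand. The first is the GC box, GGGCGG, which reads CCGCCC on the other strand. The second is the CCAAT box, whose other strand reads ATTGG. The third is AGGTCA, the core of nuclear receptor binding elements, which appears as TGACCT when the match is on the opposite strand.
CAT, chr11:34438684-34438933, plus strand: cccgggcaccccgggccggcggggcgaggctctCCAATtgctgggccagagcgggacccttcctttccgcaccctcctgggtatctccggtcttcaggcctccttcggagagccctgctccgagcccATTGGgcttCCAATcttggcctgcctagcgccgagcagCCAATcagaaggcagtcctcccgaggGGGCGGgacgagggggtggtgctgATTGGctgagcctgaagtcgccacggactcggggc
AGXT, chr2:240868574-240868823, plus strand: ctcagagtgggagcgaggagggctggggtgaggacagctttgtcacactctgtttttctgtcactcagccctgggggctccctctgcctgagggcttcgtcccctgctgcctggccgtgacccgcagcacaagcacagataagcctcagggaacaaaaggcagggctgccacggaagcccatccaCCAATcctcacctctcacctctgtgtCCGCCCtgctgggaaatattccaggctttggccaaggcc
PEX3, chr6:143450555-143450804, plus strand: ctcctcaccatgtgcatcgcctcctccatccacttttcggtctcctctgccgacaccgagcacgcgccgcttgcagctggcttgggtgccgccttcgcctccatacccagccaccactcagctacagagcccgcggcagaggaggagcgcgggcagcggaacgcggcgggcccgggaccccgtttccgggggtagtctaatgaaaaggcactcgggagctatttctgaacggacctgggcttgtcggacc
ACSL3, chr2:222860786-222861035, plus strand: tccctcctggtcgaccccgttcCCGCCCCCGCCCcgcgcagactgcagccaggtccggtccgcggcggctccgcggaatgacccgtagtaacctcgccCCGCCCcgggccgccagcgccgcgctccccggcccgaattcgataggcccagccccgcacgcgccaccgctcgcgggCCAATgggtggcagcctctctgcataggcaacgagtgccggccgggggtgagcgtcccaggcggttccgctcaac
HADHB, chr2:26244689-26244938, plus strand: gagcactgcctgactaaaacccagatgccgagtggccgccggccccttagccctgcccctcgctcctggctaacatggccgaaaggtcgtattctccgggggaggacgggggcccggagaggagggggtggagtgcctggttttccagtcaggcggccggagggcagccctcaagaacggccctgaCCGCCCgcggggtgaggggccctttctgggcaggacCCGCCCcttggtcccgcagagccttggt
CAT held 5 CCAAT letters and 1 GC box, AGXT 1 of each, ACSL3 3 GC boxes and 1 CCAAT, and HADHB 2 GC boxes, while PEX3 held 0 of the 3 motifs in these bases. Of the 11 members lower in both lines with a window read, 10 held a GC box, 5 a CCAAT and 0 an AGGTCA. Of the 4 higher in both, the numbers were 4, 3 and 0. Over all 36 members with a window read, 30 held a GC box, 11 a CCAAT and 1 an AGGTCA. A member counted when any of its windows held the letters, 52 windows in all, and by the same count the letters stood in 46.2%, 37.0% and 14.6% of the 27305 genes in the table, and in 42.6%, 32.0% and 12.1% of its 35116 single windows. The 27305 genes were not limited by gene type or chromosome, so their shares are no matched background for the members. A match is a description of letters and not a site in use.

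The responses of 15 members differed between the lines by the interaction test, 5 higher in Huh7 and 10 lower, against 11.7% and 9.88% of the 15668 genes tested. Of all 14518 genes tested in both lines, 5589 were called in Huh7 alone. Libraries spread less there, with a biological coefficient of variation of 0.0663 against 0.189 in HepG2. Of the 17 members called in Huh7 alone, several were also called in HepG2 with the replicate block. These were ACADM, HADH, ECI1, HSD17B4, ACAA1, PEX6 and, in the other direction, ABCD3. Of the same 17, 8 were among the 15 whose responses differed, so for the other 9 a difference between the lines was not shown. Past CPT1A, the clearest were PEX26 at −0.86 ± 0.11 (SE, log2, Huh7 minus HepG2; adjusted p = 0.000182), ACSL4 at −0.81 ± 0.12 (adjusted p = 0.000613) and ACADVL at −0.57 ± 0.10 (adjusted p = 0.00121). ETFDH, EPHX2 and ACADVL fell in both lines and fell further in Huh7, and each also began from a higher Ctrl-siRNA level there. The same Ctrl-siRNA libraries enter that level and the fall, so the values are not independent, and a link was not tested. CAT, PEX3 and AGXT fell in both lines and their responses were not called different, with differences between the lines of 0.20 (95% interval −0.04 to 0.45), 0.08 (−0.33 to 0.50) and 0.04 (−0.64 to 0.72), so that the interval for AGXT is wide. The 4 smaller differences that were positive, those of PEX5, PEX13, PEX14 and ABCD3, were not past the threshold with upper-quartile factors.

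The members called lower in both lines spanned 3 to 20 exons in their main transcript, with a median of 11.5. Those called higher in both had a median of 16.5, the other members 12, and protein-coding genes tested in both lines 9. Exons of 4 members shared more than 20% of their bases with other genes: PEX10 39.1%, ECI2 29.8%, ACAA1 21.2% and SCP2 20.8%. The gene sharing the most was RER1 for PEX10, TEX56P for ECI2 and DLEC1 for ACAA1, all on opposite strands. For SCP2 it was TUBBP10, on the same strand. Whether reads were counted by strand was not given in the sources used here, so the values of these 4 are uncertain. Among the 36 and 38 members without such an overlap, 14 were lower and 5 higher in HepG2, and 26 were lower and 8 higher in Huh7.

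The other genes of these pathways, from lists drawn up beside the members, also fell more often than they rose, save for the PPARA list. These lists were chosen with earlier results of these data known. Of the 33 further genes of mitochondrial fatty acid oxidation and ketone bodies, 13 of 30 tested (43.3%) were lower and 1 higher in HepG2. In Huh7, 20 of 32 (62.5%) were lower and 3 higher. Over all genes, 20.1% were lower and 16.5% higher in HepG2, and 36.4% and 34.9% in Huh7. The median log2 differences of these list genes were −0.38 and −0.67. ACAD10, an acyl-CoA dehydrogenase relative, went from 20.7 ± 1.74 to 7.16 ± 2.08 CPM in HepG2 and from 41.8 ± 2.29 to 8.78 ± 0.637 CPM in Huh7. MMUT, the mutase that ends the breakdown of odd chains, fell by 0.995 and 1.02 on the log2 scale. SLC25A20, the carnitine-acylcarnitine translocase that lies between CPT1A and CPT2, was at 61.7 ± 1.57 against 24.9 ± 2.96 CPM in Huh7, and had a log2 difference of −0.38 in HepG2 (adjusted p = 0.239); the responses differed by −0.96 (adjusted p = 0.0167).

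Of the 46 other peroxisome genes, 12 of 41 tested (29.3%) were lower and 2 higher in HepG2, and 23 of 42 (54.8%) were lower and 9 higher in Huh7, with median log2 differences of −0.07 and −0.35. The HepG2 share lower lay near the 23.8% of protein-coding genes. In HepG2 16.5% of all genes were higher, and in Huh7 36.4% were lower and 34.9% higher. GSTK1, a glutathione transferase of peroxisomes and mitochondria, fell by 1.52 and 1.99 on the log2 scale in HepG2 and Huh7. PHYH and HACL1, which carry out alpha-oxidation of phytanic acid, fell by 1.42 and 1.25 and by 1.53 and 1.11. MPV17, a protein that peroxisome lists carry although it sits in the inner mitochondrial membrane, fell by 0.94 and 1.29. The list of PPARA, its partners and its textbook targets, which overlaps with the members in CPT1A, EHHADH, ACSL1 and PEX11A, was mixed: 7 of 30 tested (23.3%) were higher and 5 (16.7%) lower in HepG2, near the shares of all genes, and 16 of 31 (51.6%) were higher and 12 (38.7%) lower in Huh7, the latter near the 36.4% of all genes. FABP1, the liver fatty acid binding protein, fell by 1.05 and 1.60 on the log2 scale. MED1, the coactivator subunit, was 136 ± 5.37 against 274 ± 30.5 CPM in HepG2 and 79.6 ± 0.72 against 170.1 ± 0.955 CPM in Huh7. RXRA, the partner receptor, and LPIN1, a phosphatidate phosphatase and coactivator, rose by 1.34 and 1.33 on the log2 scale in Huh7, and in HepG2 had log2 differences of 0.36 and 0.40 (adjusted p = 0.0514 and 0.191).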

How the data were processed

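HepG2 and Huh7 libraries (Ctrl-siRNA or UBL5 siRNA, 3 each) were made with a stranded mRNA kit. The deposited raw counts per gene came from reads that the authors aligned with STAR 2.7.6a to GRCh38 and counted with featureCounts; its version and annotation, and whether strand was used, were not given in the sources used here. Tables of each line listed genes with at least 11 counts in HepG2 and 15 in Huh7 in all. The tables also held the authors' own base means, fold changes and p-values, which were not used. Per library, 19469574 to 29744471 counts were summed, and their number limits the precision for low members.

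Genes were filtered with filterByExpr (minimum count 10, total 15), scaled by TMM and tested with edgeR 4.0.16 (glmQLFit, glmQLFTest), adjusted by Benjamini-Hochberg over all genes tested at 0.05. Lines were tested apart. The difference between responses and between Ctrl-siRNA groups came from 1 fit over 12 libraries and 15781 genes listed for both lines. That fit estimated the spread of each gene over both lines together, with a biological coefficient of variation of 0.124. Fitted apart, it was 0.189 in HepG2 and 0.0663 in Huh7. The effect of this shared estimate on the calls was not tested. Standard errors were recovered from the F statistic. CPM used the same scaling. Exons, lengths and overlaps came from GENCODE 44 (GRCh38), which held 17603 of 17640 and 18398 of 18434 gene identifiers. The fits were tested on simulated data. Members and lists were chosen with earlier results of these data known. Values in every library were given for members called in both lines in 1 direction with a log2 difference of at least 1 in either, called in opposite directions, or differing between lines by at least 1, and for others a result turned on; of each pathway list the 4 with the smallest adjusted p were named.

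Samples sharing a replicate number deviated together in HepG2: over 9405 genes of at least 10 CPM, the correlations of deviations from the group means were 0.41, 0.32 and 0.34, and each library correlated best with its own number. Over all 15755 genes tested they were 0.12, 0.11 and 0.073. The labels give only the number, so a HepG2 pairing rests on the well-expressed genes alone. The values reported come from fits without it, and the replicate block is given as an alternative. In Huh7 the correlations were 0.44, 0.062 and 0.57 over 9829 genes, so the numbers there were treated as names. Alternatives were DESeq2 1.42.0, RLE and upper-quartile factors, no filter, CPM of at least 1 in 3 libraries, the replicate block, each library left out, and the longest transcript as length.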

Additional observations from a re-analysis of the deposited data

Results flagged for a closer look

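The responses of 15 members to UBL5 siRNA differed between the lines in the interaction test (edgeR, adjusted over 15668 genes). Values are log2 differences of the response, Huh7 minus HepG2. No group had more than 3 libraries, so no library was tested as lying apart.

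The response was higher in Huh7 for CPT1A (1.10), PEX14 (0.392), ABCD3 (0.360), PEX5 (0.340) and PEX13 (0.324). It was lower in Huh7 for ETFDH (−0.919), PEX26 (−0.857), ACSL4 (−0.811), EPHX2 (−0.774), ACOX2 (−0.761), ACADVL (−0.567), ACSL1 (−0.500), ETFB (−0.486), HSD17B4 (−0.356) and HADHA (−0.233).

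The calls of 9 of these members were kept whichever library was left out: CPT1A, PEX26, ACSL4, ACADVL, ACSL1, ETFDH, ETFB, ACOX2 and HSD17B4. The call of HADHA was lost without any 1 of 11 libraries, all but HepG2 UBL5 siRNA replicate 2 (adjusted p = 0.0602 to 0.136), and that of PEX14 without any 1 of 10, all but HepG2 Ctrl-siRNA replicate 3 and HepG2 UBL5 siRNA replicate 2 (adjusted p = 0.0588 to 0.111). Those of ABCD3 and PEX13 were each lost without any 1 of 8 libraries, all but HepG2 Ctrl-siRNA replicates 1 and 2, HepG2 UBL5 siRNA replicate 3 and Huh7 Ctrl-siRNA replicate 1 (adjusted p = 0.0552 to 0.105 and 0.0545 to 0.102). That of EPHX2 was lost without HepG2 UBL5 siRNA replicate 1 or 2 or Huh7 UBL5 siRNA replicate 1 (adjusted p = 0.0512 to 0.0685). That of PEX5 was lost without Huh7 Ctrl-siRNA replicate 3 or Huh7 UBL5 siRNA replicate 1 or 2 (adjusted p = 0.0560 to 0.0647).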

How the results depend on the processing

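The counts of members higher and lower stayed within 1.5 times under all alternatives, except in the following cases. In HepG2, leaving out 1 library in turn gave 10 to 19 members lower, the low end without UBL5 siRNA replicate 2, and 3819 to 7270 genes called over all genes. For the difference of the responses, members higher in Huh7 went from 5 to 1 with upper-quartile factors and to between 1 and 4 with 1 library left out. CPT1A alone was then left by the upper-quartile factors. The cause was not tested. The median level of the members in HepG2 with Ctrl-siRNA was 12.8 CPM per kilobase of merged exons and 18.7 per kilobase of the longest transcript, which is the shorter length. UBL5 stayed lower in all settings.

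The replicate block (no replicate block in the values reported) gave 22 lower and 6 higher members in HepG2, 29 and 9 in Huh7, and 5 higher and 12 lower differences between the lines. In Huh7, whose numbers do not pair the samples by the same check, the block added ACADSB (adjusted p = 0.0413). For the difference between the lines it added ACADM and EHHADH (adjusted p = 0.0301 and 0.0433), and for Ctrl-siRNA Huh7 against HepG2 it added HADH (adjusted p = 0.0157). It ended no call of a member.

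No member's call turned direction. Log2 differences near 0, called neither before nor after, changed sign as follows. In HepG2, SCP2 went to 0.0171 with DESeq2, 0.0174 with RLE and 0.0217 with upper-quartile factors and 0.0136 without the filter, and PEX13 to 0.0205, 0.0208, 0.0251 and 0.0174. In Huh7, ECI2 went to −0.0375 with upper-quartile factors and −0.0071 with the CPM filter, and ETFA to −0.0054 with upper-quartile factors. In the difference between the lines, upper-quartile factors gave −0.0488 for ECI1, −0.0307 for ACAA1, −0.0294 for AGXT and −0.0532 for PEX11A, which was −0.0019 with DESeq2 and −0.0020 with RLE factors. In Ctrl-siRNA Huh7 against HepG2, DESeq2, RLE and upper-quartile factors gave 0.0293, 0.0290 and 0.0505 for ECHS1 and 0.0251, 0.0251 and 0.0473 for ACOX2, and upper-quartile factors gave 0.0105 for ABCD3.

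With 1 library left out, values whose sign changed ranged from −0.0453 to 0.0611 for SCP2 and −0.0486 to 0.0544 for PEX13 in HepG2, and −0.0561 to 0.0737 for ECI2 in Huh7. In the difference between the lines they ranged from −0.282 to 0.0375 for ACADS, −0.0042 to 0.219 for HADH, −0.139 to 0.171 for ECI1, −0.0135 to 0.303 for ACOX3, −0.0031 to 0.0636 for ACAA1, −0.210 to 0.185 for AGXT, −0.0550 to 0.257 for PEX3, −0.295 to 0.158 for PEX10, −0.190 to 0.162 for PEX11A and −0.0799 to 0.186 for PEX16. In the Ctrl-siRNA comparison they ranged from −0.0555 to 0.0199 for ECHS1, −0.0110 to 0.180 for ECI1, −0.0859 to 0.128 for ACOX2, −0.117 to 0.0395 for ABCD3, −0.0176 to 0.295 for PEX2 and −0.367 to 0.113 for PEX6. The calls of ACADL and ACSL5 in Huh7, at 1.24 and 5.57 CPM with Ctrl-siRNA, were lost without some single libraries.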
